A study of Arabidopsis thaliana with 23 samples.

Results

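The expansin and xyloglucan endotransglucosylase/hydrolase (XTH) genes of Arabidopsis thaliana were followed through chromatin immunoprecipitation maps of the histone mark H3K27me3 and of the demethylase REF6 in flowers. A gene was a member if it codes for protein on 1 of the 5 nuclear chromosomes and its symbol is EXPA, EXPB, EXLA, EXLB or XTH followed by a number, with an AT prefix allowed. This rule found 63 of 27432 coding genes: 23 EXPA, 6 EXPB, 3 EXLA, 1 EXLB and 30 XTH genes. Each member was chosen by its symbol, but the families themselves were selected on earlier results of these data, namely H3K27me3 coverage in both genotypes and REF6-GFP summits at these genes, so the values below are descriptions without a test. In the gene table, a further 6 coding genes carry such a name only as a synonym and were not counted: EXP3 (EXPA3), TCH4 (XTH22), XTR6 (XTH23), EXGT-A3 (XTH27), PNP-A (EXLB3) and AT4G30380 (EXLB2). EXP26, named there as expansin A26, was not counted either.

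All plants were of the Col0 background, and unopened flowers of 5-week-old plants were used. H3K27me3 was profiled in the elf6-3ref6Cjmj13G triple mutant (2 samples), in which REF6 and the related genes ELF6 and JMJ13 are mutated, and in the wild type (2 samples). REF6-GFP in ref6-3 plants was precipitated through GFP after crosslinking with DSG, which joins proteins to each other (3 samples), and without DSG (3 samples). REF6-ZnF-GFP, driven by the REF6 promoter in the triple mutant per the labels, was profiled with DSG in the triple mutant (2 samples), and the samples titled as REF6-ZnF-GFP in ref6 (3 samples) have a genotype entry that names REF6-GFP. Each of the 6 groups is represented by 1 peak list called on its samples together, so replicate spread is unknown and nothing could be tested between lists. The labels do not say whether samples came from separate plants. The lists carry neither expression values, against which the flower label could be checked, nor read depths. Flowers hold many cell types, so a mark in fewer cells and less mark per cell cannot be told apart.

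Plant cell walls are networks of cellulose microfibrils tied together by xyloglucan and embedded in pectin. Expansins loosen this network without cutting it: the EXPA proteins are the alpha-expansins, the EXPB proteins the beta-expansins, and EXLA and EXLB are expansin-like proteins of less certain activity. XTH enzymes cut xyloglucan chains and rejoin them to other chains or, in a few members, to water. Both families are large, and single members are used in different organs. H3K27me3 is laid down by Polycomb complexes over genes that are kept silent, and it usually spans whole gene bodies. REF6, a demethylase of the Jumonji class, takes the mark off histones and binds DNA through zinc fingers.

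The share of expansin and XTH genes that carried H3K27me3 in flowers was higher than that of coding genes at large. A gene was called marked where the deposited domains covered at least 50% of its body. In the triple mutant 46 of the 63 genes were marked (73.0%), against 30.9% of all coding genes, and in the wild type 33 were marked (52.4%), against 23.7% of all coding genes. With 80% coverage required, 34 were marked in the triple mutant (54.0%, against 23.5% of all coding genes). In the wild type 26 were then marked (41.3% against 18.6%). With a −log10 q of at least 10 the counts were 39 (61.9% against 27.3%) and 30 (47.6% against 20.4%). The median member was covered over 87.6% of its body in the triple mutant and over 59.6% in the wild type, whereas the median coding gene was uncovered in both. Members had shorter bodies, with a median of 1644 bp against 2078 bp over all coding genes, and the part of length in these shares was not tested. By subfamily, 20 of 23 EXPA genes were marked in the triple mutant and 12 in the wild type. Among the XTH genes, 20 of 30 were marked in the triple mutant and 16 in the wild type.

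**Figure D1:**
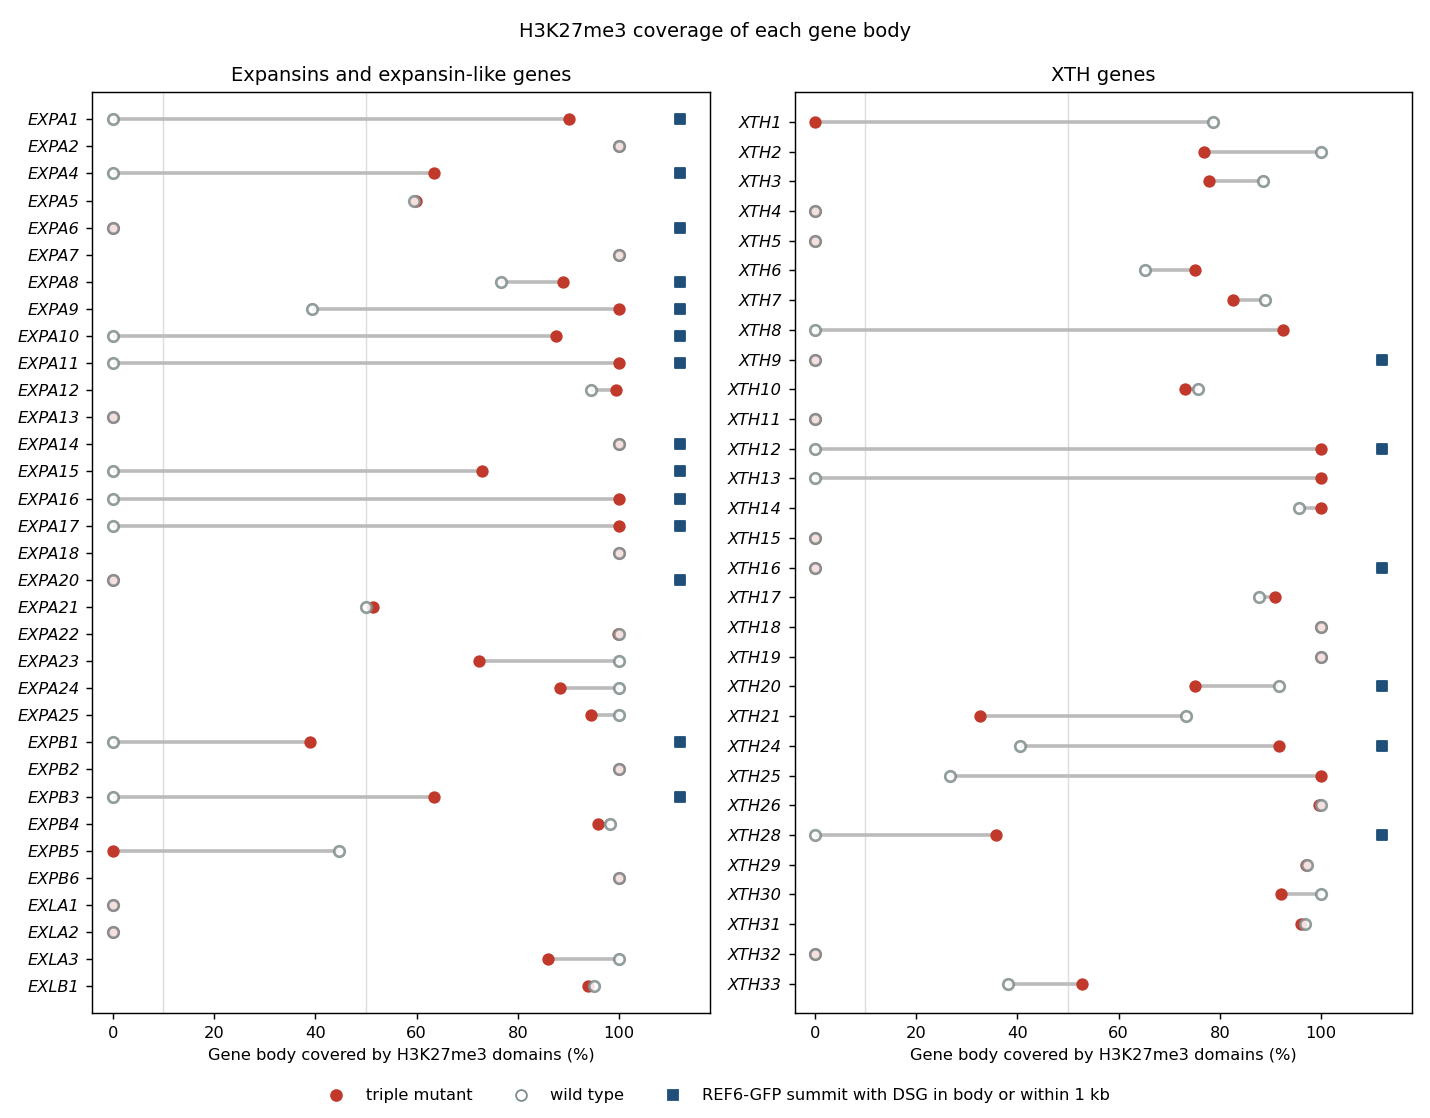
Share of each gene body covered by H3K27me3 domains (%, x axis) in the triple mutant (filled red) and the wild type (open grey) for the 33 expansin and expansin-like genes (left) and the 30 XTH genes (right); grey vertical lines stand at 10% and 50%, and a blue square marks a REF6-GFP summit with DSG in the body or within 1 kb. Long bars with the red point on the right are the genes that gained coverage, and squares stand beside 12 EXPA genes but 6 XTH genes.

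Genes were sorted into 5 H3K27me3 states. Gained genes were marked in the triple mutant while less than 10% of the body lay in wild-type domains, and lost genes were the reverse. Of the 63 members, 11 gained the mark (17.5%), against 6.29% of all coding genes, and 1 lost it (1.59%), against 0.565%. Another 31 were marked in both genotypes (49.2% against 22.1% of all coding genes), and 12 were under 10% covered in both (19.0% against 60.5%). The other 8 were intermediate (12.7% against 10.6%). The gained genes were EXPA1, EXPA4, EXPA10, EXPA11, EXPA15, EXPA16, EXPA17, EXPB3, XTH8, XTH12 and XTH13, and the lost gene was XTH1. Gains thus fell to 7 of 23 EXPA genes (30.4%), 1 of the 10 EXPB, EXLA and EXLB genes and 3 of 30 XTH genes. The difference between subfamilies was not tested, since neighbouring genes can share a domain and the families were chosen with results known.

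**Figure D2:**
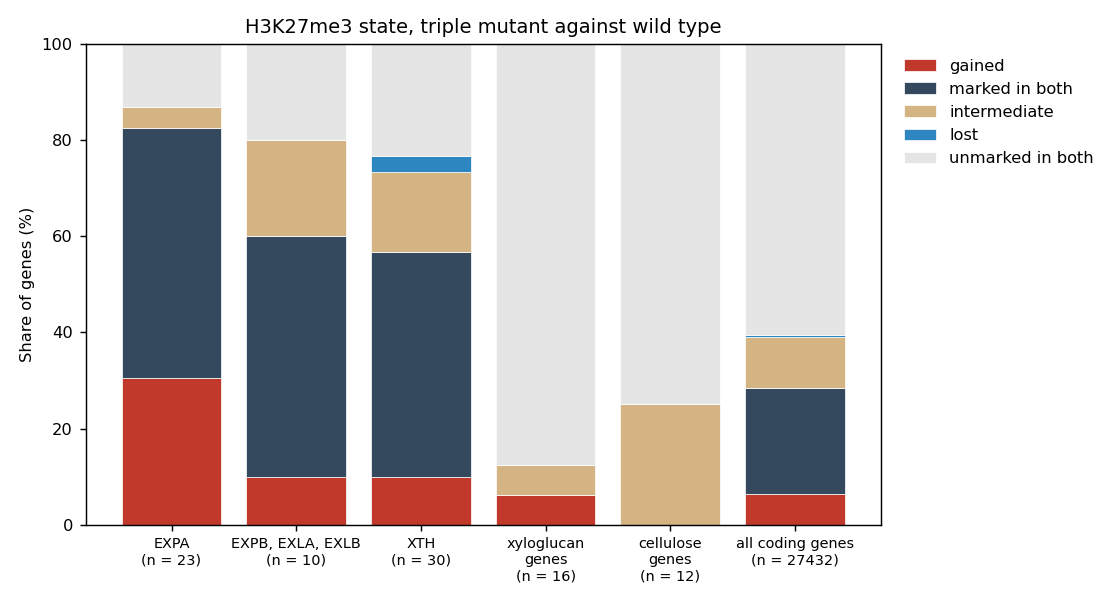
Share of genes (%, y axis) in each H3K27me3 state, triple mutant against wild type, for the subfamilies, the 2 lists of wall polysaccharide synthesis genes and all coding genes, with the number of genes under each bar. The gained share is 30.4% for EXPA and 6.29% for all coding genes, and 3 of 30 XTH genes gained the mark.

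REF6-GFP occupied 20 of the 63 members with DSG and 18 without it. A gene was called bound where a deposited summit fell on its body or no more than 1 kb away from it. The bound share was 31.7% with DSG, against 25.1% of all coding genes, and 28.6% without DSG, against 21.4%, close to the background over all members. Subfamilies differed in this count, again without a test. With DSG, 12 of 23 EXPA genes (52.2%) were bound, 2 of 6 EXPB genes, 6 of 30 XTH genes (20.0%) and none of the 3 EXLA genes or EXLB1. Without DSG the counts were 11 EXPA, 1 EXPB and 6 XTH genes. Both lists held summits at 17 members, 3 had one with DSG alone and 1 without DSG alone. Over all coding genes these counts were 5618, 1261 and 241, so the overlap of the lists is not particular to the members. EXPA6, EXPB3 and XTH16 had one with DSG alone, where their folds of 2.88, 3.49 and 2.70 were among the lowest of the bound members, and XTH13 had one without DSG alone. The 20 genes bound with DSG carried 21 peaks, of which 17 had their summit inside a member's body.

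The fold enrichment of a peak is the authors' own value over their control. It was compared only within a list, through ranks, medians and a split at a fold of 10. XTH12 ranked 4 of 5393 peaks with DSG, with a fold of 24.7, and 4 of 4526 without DSG, with a fold of 31.1. EXPA17, known from lateral root emergence, came next among members with DSG, and without DSG EXPA10 stood just above it. EXPA17 had folds of 19.9 with DSG (rank 87) and 22.4 without DSG (rank 99). In both lists this summit lay outside the body of EXPA17 and was also within 1 kb of its neighbour AT4G01640. EXPA1, an alpha-expansin with a role in stomatal guard cells, had 17.2 (rank 217) and 21.1 (rank 133), and EXPA10, which promotes leaf cell growth, had 15.7 (rank 305) and 22.5 (rank 97). XTH9 had 14.7 with DSG and 11.9 without it, EXPA16 had 12.0 and 11.5, EXPA14 had 11.01 and 8.23, and EXPA9 had 10.4 and 7.71. These 8 genes had the highest folds with DSG, and the other 12 lay between 2.70 at XTH16 and 8.39 at EXPB1. The median over the bound members was 5.89 with DSG, against 4.63 over all bound coding genes, and 7.53 without DSG, against 4.43.

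**Figure D3:**
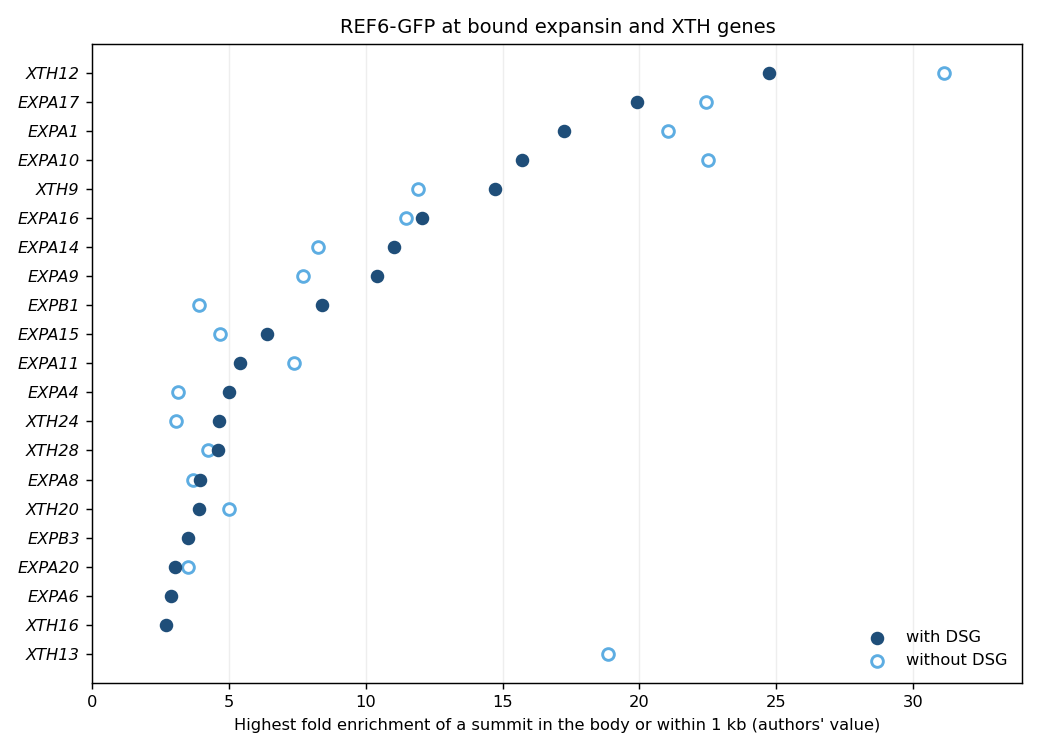
Highest REF6-GFP fold enrichment (authors' value, x axis) of a summit in the body or within 1 kb of each of the 21 members bound in either list, with DSG (filled) and without DSG (open); a missing point is a missing summit. XTH12 has the highest fold of the members in both lists, 24.7 and 31.1, and XTH13 has a summit without DSG alone, at 18.9.

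The EXPA genes that lacked H3K27me3 in the wild type were nearly all bound. Of the 10 EXPA genes under 10% covered in the wild type, 9 had a REF6-GFP summit with DSG, against 28.3% of all coding genes with so little coverage there, and 7 of these gained the mark (77.8%), against 21.6% of all bound coding genes with so little wild-type coverage. The exceptions were EXPA6 and EXPA20, which had low folds (2.88 and 3.02 with DSG) and stayed uncovered in both genotypes. The 1 unbound gene of the 10, EXPA13, was also uncovered in both. Of the 11 XTH genes under 10% covered in the wild type, 4 were bound (36.4%), namely XTH9, XTH12, XTH16 and XTH28, and 1 of the 4, XTH12, gained the mark. The other 7 XTH genes were unbound, and XTH8 and XTH13 among them gained it. Of the 25 members with so little wild-type coverage, 15 were bound, and 9 of these gained the mark. Of the 10 unbound ones, 2 gained it (20.0%, against 3.85% of all such unbound coding genes). XTH13 lay under a peak with DSG and had a summit without DSG (fold 18.9). XTH8 had no REF6-GFP summit within 1 kb in either list. It counted as bound with DSG only within 2 kb, a limit that raised the bound share of all coding genes from 25.1% to 32.2%. Of the 11 gained members, 9 were bound (81.8%), against 68.9% of all gained coding genes.

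Gains were found at high and at low folds. The members were split at a fold of 10, a limit set after the values were seen, and the difference between the 2 sides was not tested. Of the 6 members unmarked in the wild type with a fold of at least 10, 5 gained the mark, and of the 9 with a lower fold 4 did, namely EXPA4, EXPA11, EXPA15 and EXPB3. Among all coding genes unmarked in the wild type these shares were 38.7% of 1037 and 17.6% of 4464. XTH9, which is expressed at shoot apices, was the 1 gene on the high side without a gain: its peak with DSG (chromosome 4, 1415440 to 1416835) ranked 379 with a fold of 14.7, yet no base of the gene lay in an H3K27me3 domain in the triple mutant or in the wild type. EXPB1 and XTH28, which is needed for stamen filament growth, took a middle place. EXPB1 had a fold of 8.39 and was covered over 39.0% of its body in the triple mutant and 0% in the wild type, and XTH28 had a fold of 4.59 with 35.7% and 0%.

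**Figure D4:**
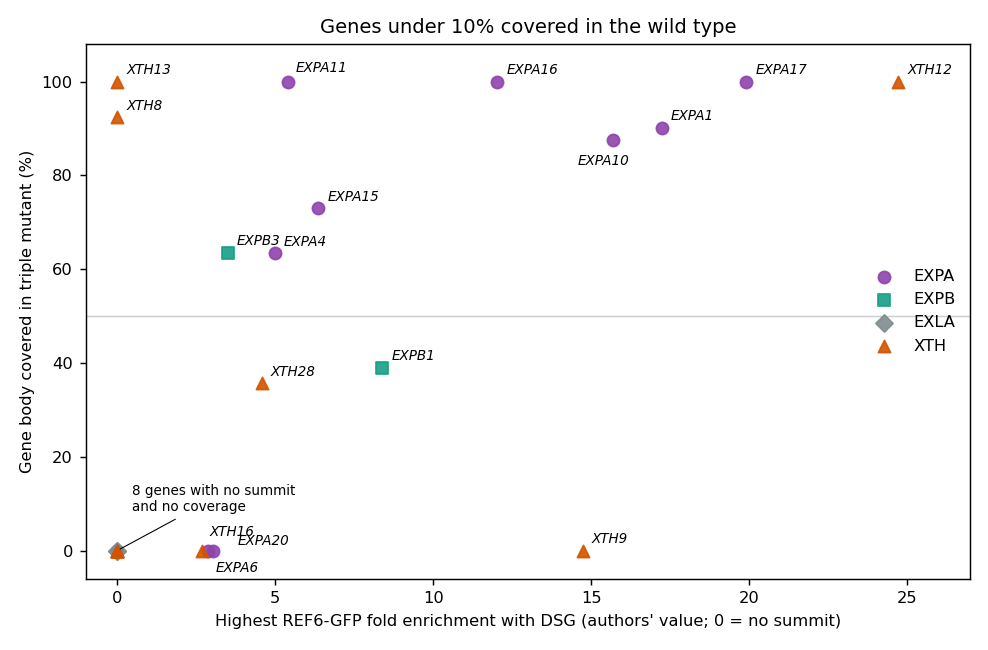
Highest REF6-GFP fold enrichment with DSG (authors' value, x axis; 0 stands for no summit) against the share of the gene body covered by H3K27me3 in the triple mutant (%, y axis) for the 25 members under 10% covered in the wild type. At the upper right sit the 5 genes with folds of 12.0 to 24.7 that gained the mark, XTH9 at 14.7 and 0% sits apart, and 8 genes with neither signal overlap at the origin.

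The gained genes lay under 10 domains of the triple mutant, since XTH12 and XTH13 shared 1, and these domains were of different kinds. All but the domain of XTH8, 9 of 10, held a summit of the REF6-GFP list with DSG. Neither this share nor that of domains touching no wild-type domain was computed over all domains of the triple mutant. Among all gained coding genes 68.9% were bound, so the 9 are not read as particular to these genes. Their widths ran from 1215 to 15779 bp and their folds from 1.36 to 4.72. Of the 10, 5 touched no wild-type domain, at EXPA1, EXPA4, EXPA15, EXPB3 and XTH8, and each of these covered 1 coding gene. The strongest of them was the domain of EXPA1 (chromosome 1, 26141904 to 26144007, −log10 q of 134), which covered 90.2% of that gene in the triple mutant against 0% in the wild type. EXPA4 was covered over 63.4%, EXPA15 over 72.9% and XTH8 over 92.4% in the triple mutant, with −log10 q of 20.3, 26.8 and 14.9, and none of the 3 had a covered base in the wild type. EXPB3 was covered over 63.5% by a weak domain, with a fold of 1.36 and a −log10 q of 2.50, against 0% in the wild type.

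The other 5 gained domains each touched at least 1 wild-type domain and reached beyond it. EXPA10 was covered over 87.6% of its body in the triple mutant and 0% in the wild type, under a domain (chromosome 1, 9259666 to 9262794) of which 21.1% was also covered in the wild type. EXPA11 was covered over 100% against 0%, and 47.9% of its domain was covered in the wild type. EXPA17 was covered over 100% against 0%, and 23.4% of its domain was covered in the wild type. EXPA16 was covered over 100% against 0%. Its domain, 15779 bp wide (chromosome 3, 20574041 to 20589819), touched 2 wild-type domains, also took in RBL and AT3G55513, and was covered over 57.6% in the wild type.

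XTH12, XTH13 and XTH25 stand close together on chromosome 5, beside TCH4, which is a touch-induced XTH gene. In the triple mutant 1 domain of 13481 bp (chromosome 5, 23294916 to 23308396, fold 4.72, rank 203 of 9391) covered 100% of XTH12, XTH13 and XTH25 and 83.0% of TCH4. In the wild type 2 domains touched this stretch and covered 36.0% of it, with 0% of XTH12, XTH13 and TCH4 and 26.6% of XTH25. XTH12 and XTH13 are known mainly as root genes. With DSG 1 peak of 4619 bp (chromosome 5, 23299572 to 23304190) ran over both XTH12 and XTH13, and its single summit fell within 1 kb of XTH12 alone. Without DSG the same stretch held 2 peaks, with a fold of 31.1 at XTH12 (23299644 to 23301649) and of 18.9 at XTH13 (23302049 to 23303415). XTH13 therefore counted as unbound with DSG although that peak reached it. TCH4 had a summit of its own, with folds of 6.72 with DSG and 5.40 without it.

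A second group of genes had a partly covered body in the wild type and a wider coverage in the triple mutant. EXPA9 was covered over 100% in the triple mutant and 39.4% in the wild type. Its wild-type domain began at position 464407 of chromosome 5, and the REF6-GFP peak with DSG (463110 to 464377, fold 10.4) lay just outside it, with the summit in the stretch covered in the triple mutant alone. XTH24, first described as the meristem gene MERI5, was covered over 91.6% in the triple mutant and 40.6% in the wild type, and its REF6-GFP summit (fold 4.63) lay inside the wild-type domain. XTH25 was covered over 100% and 26.6%. XTH33, which encodes an XTH held at the plasma membrane, was covered over 52.8% and 38.2% and had no REF6-GFP summit. These 4 genes were intermediate because more than 10% of their body was already covered in the wild type. EXPA9 and XTH25 ended fully covered in the triple mutant, where the coverage of the gained genes ran from 63.4% at EXPA4 to 100%.

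**Figure D5:**
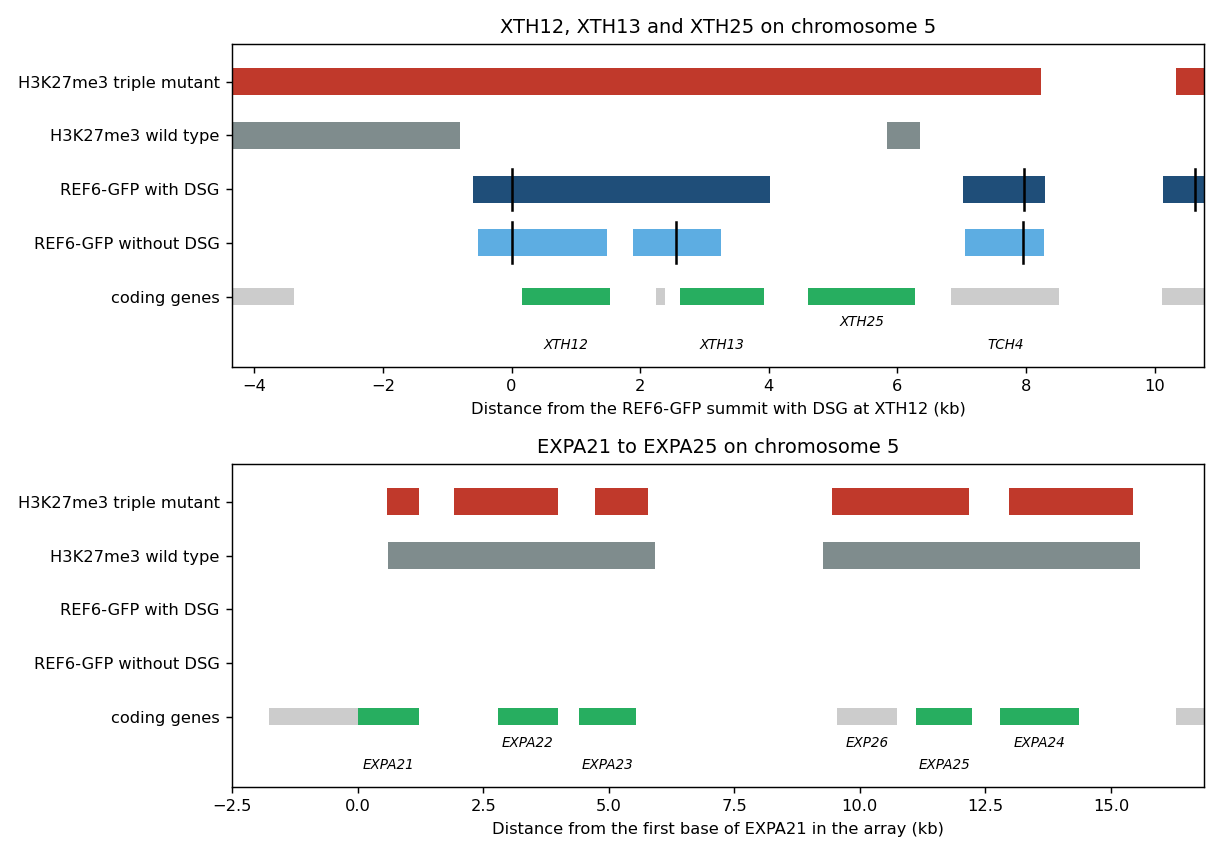
Maps of 2 gene arrays on chromosome 5, with H3K27me3 domains of the triple mutant (red) and the wild type (grey), REF6-GFP peaks with and without DSG (dark and light blue, black ticks at summits) and coding genes (green for members, light grey for others), drawn as distance in kb. In the upper map 1 triple mutant domain spans XTH12, XTH13 and XTH25, and in the lower map 2 wild-type domains over EXPA21 to EXPA25 stand as 5 shorter ones in the triple mutant, with no REF6-GFP peak.

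The 31 members marked in both genotypes held 12 EXPA, 3 EXPB, 1 EXLA, 1 EXLB and 14 XTH genes. EXPA7 and EXPA18, the root hair expansins, were covered over 100% of their bodies in both genotypes, and so was EXPA2, which acts in germinating seeds. XTH26, also a root hair gene, was covered over 99.6% in the triple mutant and 100% in the wild type. XTH18 and XTH19, root genes that lay under 1 shared domain in each genotype, were covered over 100% in both. EXPB2 and EXPB6, which are neighbours on chromosome 1, shared 1 domain in each genotype as well and were covered over 100% in both. XTH31, whose product mainly hydrolyses xyloglucan, was covered over 96.0% in the triple mutant and 96.8% in the wild type. EXPA5, a growth gene that responds to brassinosteroids, was covered over 59.95% and 59.6%.

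REF6-GFP binding at genes marked in the wild type stood near the background. With DSG it was bound at 3 of the 33 members marked in the wild type (9.09%), against 13.3% of all coding genes marked there: EXPA8, EXPA14 and XTH20. EXPA14, an expansin known from roots, was covered over 100% in both genotypes and still had a peak with DSG (chromosome 5, 22809177 to 22810129) with a fold of 11.01, whose summit lay inside domains of both genotypes. EXPA8 was covered over 88.9% in the triple mutant and 76.8% in the wild type, with a fold of 3.93. Of the 21 peaks with DSG at members, 10 had their summit in a domain of the triple mutant alone (47.6%, against 36.3% of all 5393 peaks), 4 in domains of both genotypes (19.0% against 7.27%) and 7 in none (33.3% against 56.3%).

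Coverage was lower in the triple mutant at 19 members and higher at 24, with 20 equal. Among all 27432 coding genes 2936 were covered less and 5523 more, with 18973 equal, so equal coverage was the most frequent outcome there. XTH1 was the only member called lost, with 0% of its body covered in the triple mutant and 78.6% in the wild type. Its wild-type domain (chromosome 4, 7626779 to 7628231) was weak, with a fold of 1.34 and a −log10 q of 1.46. The lost count depended on the limits: it was 0 at 80% coverage, 2 with equal numbers of domains and 7, without XTH1, when domains needed a −log10 q of at least 10. Under these settings 0.339%, 1.19% and 1.32% of all coding genes were called lost. Its neighbour XTH2 was covered over 76.8% in the triple mutant and 100% in the wild type. EXPB5 was uncovered in the triple mutant and covered over 44.6% in the wild type, by a domain with a −log10 q of 2.81. XTH21, which acts in root growth, was covered over 32.6% and 73.3%. None of these 4 genes had a REF6-GFP summit in either list.

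The array from EXPA21 to EXPA25 holds 5 members and EXP26, a further expansin gene that the symbol rule left out. It held no REF6-GFP summit with or without DSG. In the wild type 1 domain of 5318 bp lay over EXPA21, EXPA22 and EXPA23, and 1 of 6327 bp over EXPA25 and EXPA24. In the triple mutant 5 shorter domains, of 635 to 2735 bp, stood in their place, and 70.2% and 82.2% of the wild-type domains were covered by them. EXPA23 was covered over 72.4% in the triple mutant and 100% in the wild type, EXPA24 over 88.4% and 100%, EXPA25 over 94.4% and 100%, and EXPA22 over 99.8% and 100%. EXPA21 stood at the limit of the marked call, with 51.4% and 50.1%, and the domain over it in the triple mutant had a −log10 q of 0.751. EXP26 was covered over 100% in both. With a −log10 q of at least 10 required, EXPA21, EXPA22, EXPA23 and EXPA25 were among the 7 genes called lost.

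There were 12 members with no H3K27me3 domain over them in either genotype: EXPA6, EXPA13, EXPA20, EXLA1, EXLA2, XTH4, XTH5, XTH9, XTH11, XTH15, XTH16 and XTH32. REF6-GFP with DSG was bound at EXPA6, EXPA20, XTH9 and XTH16. XTH4, which acts in vascular tissue, XTH5 and the shade-responsive XTH15 had no REF6-GFP summit in either list. EXLA1 and EXLA3 are neighbours on chromosome 3 with opposite states: EXLA1 was uncovered in both genotypes, and EXLA3 was covered over 85.9% in the triple mutant and 100% in the wild type, there by a weak domain with a −log10 q of 2.49.

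The REF6-ZnF-GFP lists gave little more for these genes. In the triple mutant this list is dense on chromosomes 1 to 3 and sparse on chromosomes 4 and 5. Its summits lay at 26 of the 63 members (41.3%, against 35.1% of all coding genes), namely at 22 of 33 members on chromosomes 1 to 3 (66.7%, against 51.9% of coding genes there) and at 4 of 30 on chromosomes 4 and 5 (13.3% against 8.08%). EXPB1 had the strongest of them, with a fold of 11.2 (rank 34 of 9327), and EXPA10 had 6.36 (rank 281). XTH8, which had no REF6-GFP summit, had 2 REF6-ZnF-GFP summits in its body with folds of 3.75 and 3.79, both in the domain found in the triple mutant alone. The list titled as REF6-ZnF-GFP in ref6 held summits at EXPA2 and XTH12, with folds of 2.21 and 2.23, at 3.17% of members against 1.08% of coding genes.

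Genes that build the polysaccharides these proteins act on were mostly unmarked, as were 60.5% of all coding genes. Of 16 genes of xyloglucan synthesis and trimming, 0 were marked in the wild type, 14 were under 10% covered in both genotypes (87.5%), and 3 were bound with DSG (18.8%, against 25.1% of all coding genes). The mark was gained by 1 of the 16 (6.25%, against 6.29%). This was CSLC4, a glucan synthase that makes the xyloglucan backbone, which was covered over 57.5% in the triple mutant and 0% in the wild type and had REF6-GFP folds of 22.0 with DSG and 30.5 without it. CSLC12 was covered over 11.3% in the triple mutant and 0% in the wild type. The xyloglucan xylosyltransferase genes XXT1 to XXT5 had neither the mark nor a REF6-GFP summit. Of 12 genes of cellulose synthesis, 0 were marked in either genotype, and 9 were under 10% covered in both (75.0%, against 60.5%). REF6-GFP with DSG was bound at 5 of them (41.7%, against 25.1% of all coding genes): CESA3 with a fold of 9.90, CESA8 with 8.55, CESA9 with 5.55, CESA4 with 4.70 and COB with 4.30. The bodies of these 12 genes are long, with a median of 5388 bp against 2078 bp over all coding genes. CESA8, a secondary wall cellulose synthase, was covered over 21.7% in the triple mutant and 0% in the wild type.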

How the data were processed

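Processed peak lists were used as deposited. Per the submitters' processing notes the tools were MACS2 2.1.0, deepTools, Picard 2.60 and Bowtie 1.1.2, with coordinates in TAIR10 and settings not given in the sources used here. All 6 lists have no header, and they were read in the MACS2 column order. Peak names hold the word pooled. Fold enrichment is the authors' linear ratio over a control of their choice. The deposited −log10 q is the authors' value too, the deposited summit offset placed each summit, and neither the deposited score nor −log10 p was used.

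Gene positions and symbols came from a RefSeq table of TAIR10.1, used without strand and without printing its coordinates. It gave 27432 coding genes, and all 28 genes of the 2 wall synthesis lists matched by identifier. No sequence was used here. Coverage is the union of domains over a gene body (Python 3.11.15, pandas 2.3.3), tested on simulated intervals. Members and lists were chosen with earlier results of these data known. The genes named are members, their neighbours under a shared domain or peak, and members of the 2 lists. Alternatives were other limits on coverage, −log10 q, window and list length. Samples of input DNA and histone H3 were not analysed here.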

Additional observations from a re-analysis of the deposited data

How the results depend on the processing

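Of 40 alternative values of the 7 counts, 37 stayed within 1.5 times the value given above. Some of the 40 could not move, so the 37 overstate how far the counts were tried. Every REF6-GFP peak with DSG had a −log10 q above 10, so that limit removed none of them. Equal numbers of peaks kept the whole wild-type domain list and the whole REF6-GFP list without DSG. The gained count, 11 as reported, was 8 with at least 80% coverage required (12.7%, against 3.89% of all coding genes). It was 15 when domains of both genotypes needed a −log10 q of at least 10 (23.8% against 7.58%). With equal numbers of domains in both lists (7914) it was 10 (15.9% against 5.93%). Of the 11 gained genes, 8 kept the call under all 4 alternatives on domains. Among these alternatives, the limit of no covered base in the wild type could end no call, since all 11 had 0% there. The 15 include EXLA3, EXPA8, XTH24, XTH25 and XTH33, whose wild-type domains fell short of that value. The calls of EXPA4 and EXPA15 ended at 80% coverage, and that of EXPB3 ended under 3 of the 4. The lost count, 1 as reported, was 0 at 80% coverage (against 0.339% of all coding genes). It was 2 with equal numbers of domains (3.17% against 1.19%) and 7 when domains needed that −log10 q (11.1% against 1.32%). Those 7 were EXPA21, EXPA22, EXPA23, EXPA25, XTH10, XTH20 and XTH21, without XTH1, because their weak domains in the triple mutant were left out. The marked counts, 46 in the triple mutant and 33 in the wild type as reported, ranged over 34 to 49 and 26 to 35. The highest values are counts of 69 genes, the members and the genes named by synonym (71.0% and 50.7%). As reported, the shares of the 63 members were 73.0% and 52.4%. Over all coding genes the marked shares ranged over 23.5% to 30.9% and 18.6% to 23.7%. The count bound by REF6-GFP with DSG, 20 of 63 members as reported, was 17 for summits in the body alone. It was 25 where any base of a peak counted, which adds XTH13, and 29 within 2 kb, which adds XTH8. The bound share of all coding genes, 25.1% as reported, moved with these rules too, to 16.2%, 28.1% and 32.2% in the same order. No paired analysis was possible because each list pools its samples, and leaving out samples was not possible for the same reason. A peak that is absent from a pooled list may be below the depth of the samples.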
